A study of Mus musculus with 9 samples.

Results

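The nuclear genes of mitochondrial oxidative phosphorylation were followed across 5 sorted populations of myeloid cells from the mouse peritoneal cavity. Genes were taken by symbol prefix for NADH dehydrogenase (complex I), succinate dehydrogenase (complex II), the cytochrome bc1 complex (complex III), cytochrome c oxidase (complex IV) and ATP synthase (complex V). The prefixes matched 96 rows of the deposited table, of which 7 Ndufaf assembly factors were dropped by name. Of the other rows, 7 did not reach 1 FPKM (fragments per length of transcript, scaled to the size of the library) in 2 of the 9 libraries. The 82 members that were kept, of 24532 genes in the table and 10526 genes tested, comprise 37 in complex I, 8 in complex II, 8 in complex III, 12 in complex IV and 17 in complex V. Of the 82 members, 81 were at 1 FPKM or more in all 9 libraries, and the exception was Cox6b2. None of the 13 subunits encoded by the mitochondrial genome was found by symbol in the deposited table, so they were not analysed here.

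All cells were MHCII+ and came from C57BL/6 mice aged 8 weeks, with no allele or treatment named in the labels. SPM are small peritoneal macrophages sorted as CD11c- CD115+. P-IV.II, also labelled as small peritoneal macrophages, and P-IV.I, labelled as peritoneal dendritic cells, are both CD11c+ CD115+. The dendritic cells of type 2 (PcDC2) and type 1 (PcDC1) are both CD11c+ CD115-. The first 4 groups have 2 libraries each and PcDC1 has 1. The labels leave unsaid whether both libraries of a group are from different mice or sorts, so a p-value here covers only the spread of these samples, which may be technical. Read depth is unknown, FPKM totals lay between 439597 and 647385, and 9115 to 9847 genes reached 1 FPKM in a library. The summed FPKM of 8 macrophage markers was 5466 to 7929 for SPM, 2198 to 2470 for P-IV.II, 702 to 765 for P-IV.I and 378 to 381 for PcDC2, with Mertk at 0 for PcDC2. In PcDC1 it was 425, with Csf1r, Mertk and Fcgr1 at 0. The sum of 5 dendritic cell markers was 26.0 to 34.0 for SPM and 61.2 to 69.6 for P-IV.II. It was 478 to 553 for P-IV.I, 595 to 660 for PcDC2 and 251 for PcDC1. The 5 type 1 dendritic cell markers summed to 1977 in PcDC1 and to no more than 193 in any other library.

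In the inner mitochondrial membrane, complexes I and II pass electrons from NADH and succinate to ubiquinone, and complex III passes them on to cytochrome c. Complex IV hands them to oxygen, and complexes I, III and IV pump protons whose return through complex V drives ATP synthesis. Each complex combines a catalytic core with accessory subunits, and the nuclear and mitochondrial genomes both supply parts of all but complex II. In macrophages and dendritic cells the balance between this pathway and glycolysis is known to differ with activation and tissue. The prefix rule also takes in 7 genes that are not standard subunits. They are the complex II assembly factors Sdhaf1, Sdhaf2, Sdhaf3 and Sdhaf4, the supercomplex factor Cox7a2l, and Atp5s and Atp5sl, which are named for ATP synthase but are not among its usual subunits. Ndufa4 was kept with complex I by its name, although it is now counted as a subunit of complex IV.

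The promoters of 5 members are printed because these genes are the members that passed the test in at least 2 comparisons. Ndufa12, Sdhd and Uqcr11 passed the test in 2 comparisons each, and Cox6b2 and Atp5sl passed in 3 each with the opposite orientation. The sequences come from RefSeq on GRCm38.p6 (the mm10 coordinates) and run from 250 bases before to 50 after the annotated start, 5′ to 3′ on the strand of the gene. The windows are chr10:94198785-94199084 on the plus strand for Ndufa12 and chr9:50603800-50604099 on the minus strand for Sdhd. Those of Uqcr11 and Cox6b2 are chr10:80406772-80407071 and chr7:4753045-4753344, both on the minus strand. For Atp5sl the first of 2 annotated windows is shown, chr7:25619164-25619463 on the plus strand. Capitals mark matches on either strand to the letters CCGGAAG (an ETS or GABP motif), AAGATGG (YY1), GGGCGG (Sp1) or the motif of nuclear respiratory factor 1, which is GCATGC with GC on both sides.
Ndufa12: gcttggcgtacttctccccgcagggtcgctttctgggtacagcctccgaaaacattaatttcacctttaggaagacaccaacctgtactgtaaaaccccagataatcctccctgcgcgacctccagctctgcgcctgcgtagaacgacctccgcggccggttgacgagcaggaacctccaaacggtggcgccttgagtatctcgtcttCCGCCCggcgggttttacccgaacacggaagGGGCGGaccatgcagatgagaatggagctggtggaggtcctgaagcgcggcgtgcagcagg
Sdhd: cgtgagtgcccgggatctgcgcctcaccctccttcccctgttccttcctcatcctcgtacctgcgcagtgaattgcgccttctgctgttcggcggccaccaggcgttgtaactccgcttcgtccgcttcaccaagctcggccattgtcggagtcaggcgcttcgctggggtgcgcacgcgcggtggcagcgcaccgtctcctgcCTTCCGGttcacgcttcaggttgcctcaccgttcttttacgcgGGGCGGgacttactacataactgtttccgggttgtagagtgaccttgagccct
Uqcr11: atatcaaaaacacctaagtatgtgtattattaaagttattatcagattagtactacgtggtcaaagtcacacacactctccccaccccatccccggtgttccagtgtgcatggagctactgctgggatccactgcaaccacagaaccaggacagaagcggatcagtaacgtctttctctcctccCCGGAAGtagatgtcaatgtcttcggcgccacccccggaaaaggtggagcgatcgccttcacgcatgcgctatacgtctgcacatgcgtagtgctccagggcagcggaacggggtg
Cox6b2: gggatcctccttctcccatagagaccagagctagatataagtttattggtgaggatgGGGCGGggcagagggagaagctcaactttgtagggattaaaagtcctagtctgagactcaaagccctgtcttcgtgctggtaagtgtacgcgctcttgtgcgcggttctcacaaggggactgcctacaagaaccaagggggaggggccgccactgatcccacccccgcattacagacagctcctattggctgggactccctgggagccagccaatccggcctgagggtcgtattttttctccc
Atp5sl: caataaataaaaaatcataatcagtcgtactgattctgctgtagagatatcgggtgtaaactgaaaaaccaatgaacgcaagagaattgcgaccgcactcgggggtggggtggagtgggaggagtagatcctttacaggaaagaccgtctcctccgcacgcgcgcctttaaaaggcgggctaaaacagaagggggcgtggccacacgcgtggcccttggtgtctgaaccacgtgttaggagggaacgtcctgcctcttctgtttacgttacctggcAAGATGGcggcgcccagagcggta

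Ndufa12 held GGGCGG once on each strand, and Sdhd held the ETS letters and GGGCGG. Uqcr11 held the ETS letters, Cox6b2 held GGGCGG and Atp5sl held AAGATGG just after the start of the window shown. In the second Atp5sl window, not shown, these letters begin 53 bases before the start. Promoter windows were found for 71 of the 82 members, 77 windows in all. The nuclear respiratory factor 1 motif was present in 6.494% of the member windows, against 2.242% of 10748 windows of tested genes. For GCATGC alone, which that motif contains and which is not capitalised above, the shares were 16.88% and 10.16%. AAGATGG was present in 16.88% against 7.601%, and CCGGAAG in 24.68% against 19.2%. GGGCGG went the other way, in 42.86% of member windows against 62.99%. These are matches of letters only, and say nothing of whether a factor binds.

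Members of all 5 complexes were expressed in every population, over a wide range of levels. The highest mean FPKM over the 9 libraries in complex V was that of Atp5b, the catalytic beta subunit of ATP synthase, at 482 ± 50.6 (SD, n = 9). Its partner Atp5a1, the alpha subunit, was listed at 249 to 377 FPKM. Atp5s was the lowest in that complex at 1.90 ± 0.931. In complex III the range ran from Uqcrc1, a core protein facing the matrix, at 276 ± 53.4 down to Uqcrq, a small accessory subunit, at 15.0 ± 18.9. Complex IV ran from Cox6a1 at 196 ± 181 to Cox6b2 at 4.96 ± 4.22. Complex II ran from its flavoprotein Sdha at 157 ± 51.8 to Sdhaf3 at 3.07 ± 2.27, and complex I from Ndufb8 at 114 ± 73.2 to Ndufa11 at 6.68 ± 4.61. The SD exceeds or nearly equals the mean for Uqcrq, Cox6a1 and Cox6b2, and for the first 2 of these the PcDC1 library supplied the highest value.

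Tissue-restricted isoforms were near or at 0 beside their common counterparts. Cox4i1, the common form of subunit 4, was at 202 and 89.8 FPKM for SPM, 235 and 157 for P-IV.II, 147 and 85.3 for the P-IV.I libraries, 116 and 131 for PcDC2 and 443 for PcDC1. Cox4i2, its lung form, reached no more than 0.0394. The muscle forms Cox6a2 and Cox7a1 stayed at or below 0.659 and 0.960, and Cox7b2, Cox8b, Cox8c and Ndufa4l2 were listed at 0 in all 9 libraries. The 3 genes for the c subunit of the ATP synthase ring, which encode the same mature protein, were all expressed. In SPM, Atp5g1 was at 55.5 and 17.2, Atp5g2 at 31.0 and 9.83, and Atp5g3 at 70.9 and 26.5, so the same library was the lower for all 3. Cox6b2 was the exception and is described with the tested differences.

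Of the 4 replicated groups, P-IV.II had the largest share of FPKM summed over the 82 members, and most members were highest there by group mean. Summed over the members, their share of all FPKM was 1.22% and 1.11% for P-IV.II, 1.05% and 0.838% in SPM, 1.01% and 0.850% in P-IV.I, and 0.860% and 0.927% in PcDC2. The P-IV.II libraries were thus the highest and SPM overlapped with both dendritic cell groups. The median member was at 56.5 and 43.9 FPKM for P-IV.II, 46.5 and 24.8 for SPM, 37.9 and 23.2 for the P-IV.I libraries, and 28.4 and 38.0 for PcDC2. On this measure SPM replicate 1 lay above P-IV.II replicate 2. By the mean of log2(FPKM + 1), P-IV.II was the highest of the 4 groups for 72 of 82 members (87.8%), against 20.2% of all 10526 tested genes. These are sums over bulk RNA, in which fewer cells of a type and less RNA per cell cannot be told apart.

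**Figure D1:**
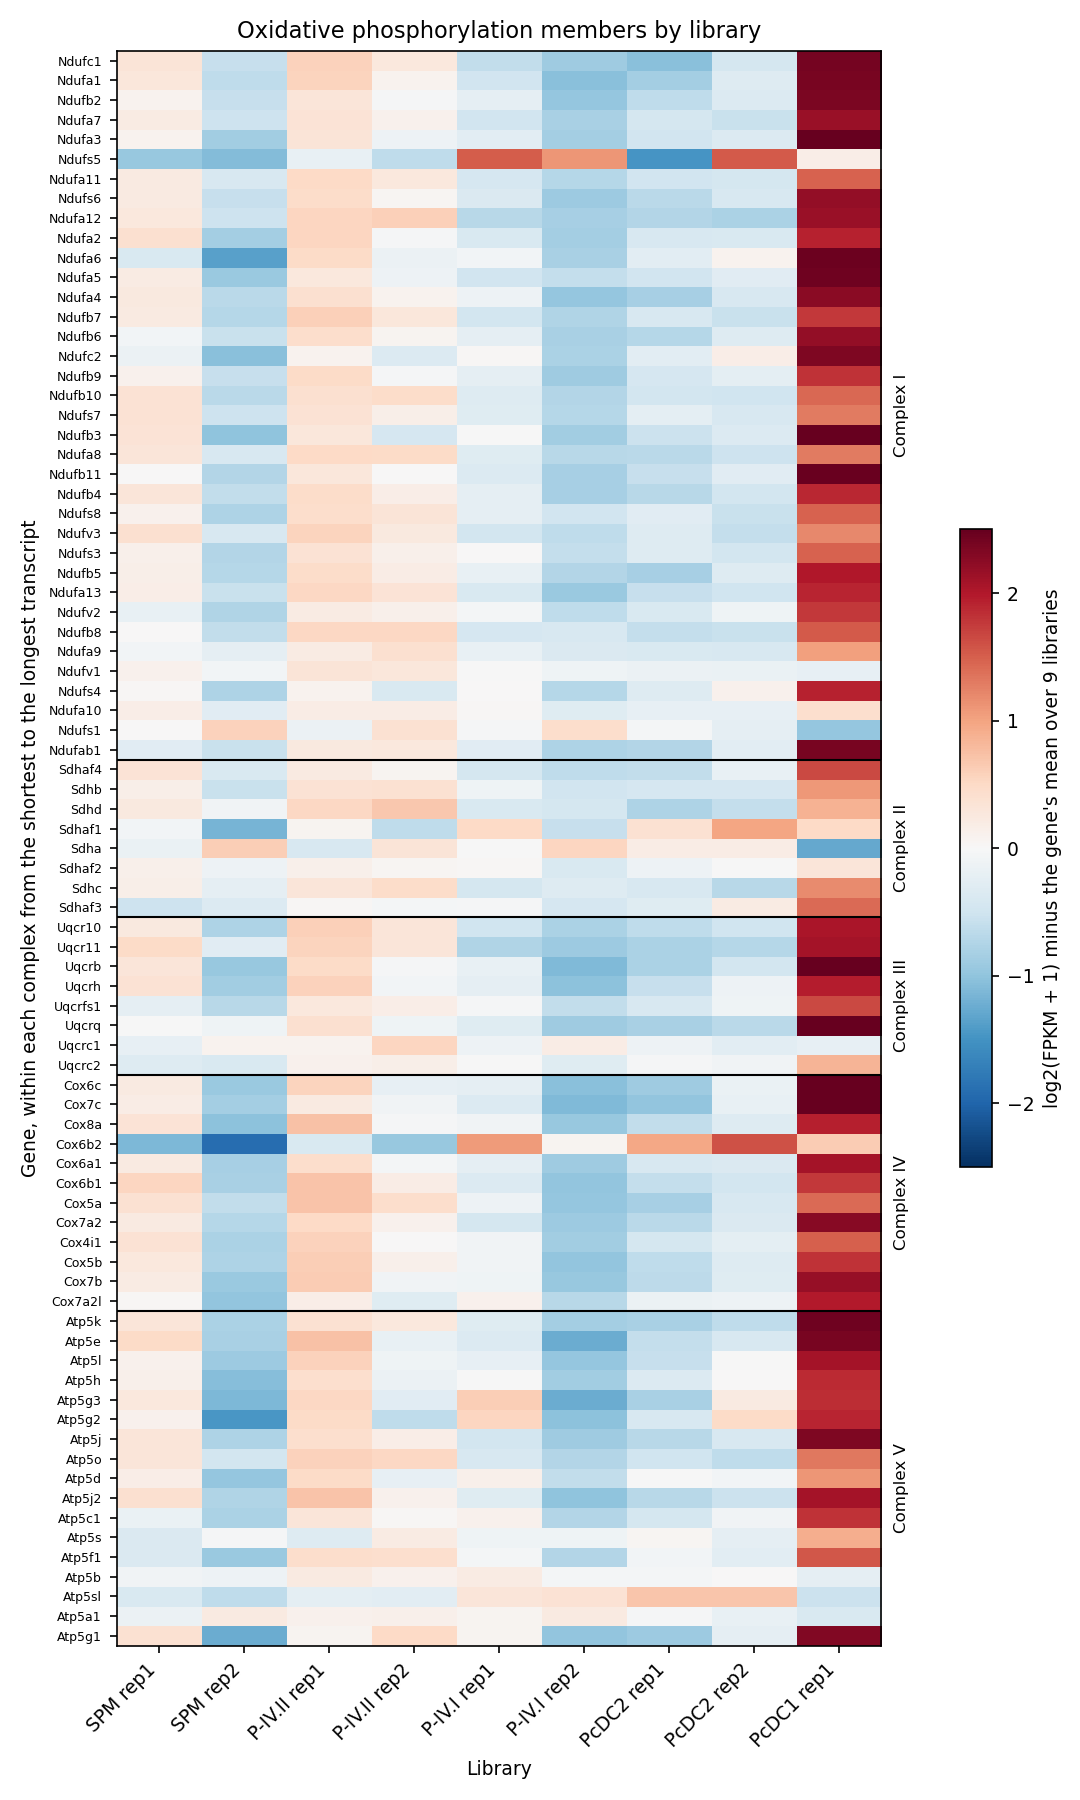
Each row is 1 of 81 of the 82 members, ordered by transcript length within its complex, and each column is a library. Colour gives log2(FPKM + 1) minus the mean of that gene over the 9 libraries. The PcDC1 column is high for 71 members above all 8 other libraries, P-IV.II is above its replicated neighbours in most rows, and Ndufs5, Cox6b2, Atp5sl and Sdha stand apart from the rows around them.

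The separation was clearest against the 2 dendritic cell groups. Both P-IV.II libraries lay above all 4 P-IV.I and PcDC2 libraries for 58 of 82 members, against 17.2% of all tested genes. This held for 38 of the 49 members of up to 1000 nt, against 38.1% of all genes of that length. It held for 20 of the 33 longer members, against 15.5% of longer genes. Both lay above all 6 libraries of SPM, P-IV.I and PcDC2 for 27 members, against 6.11%. By length these were 11 of the shorter members, against 15.2%, and 16 of the longer members, against 5.34%. Those 27 include the core subunits Ndufs3, Ndufs8, Ndufv1 and Ndufv2 of complex I, Sdhb, Sdhc and Sdhd of complex II, and Uqcrc2 and Uqcrfs1 of complex III. These patterns were chosen after the values were seen. Among 15 cell cycle genes the summed FPKM was also highest in P-IV.II of the 4 replicated groups, at 341 to 542. It was 159 to 188 for SPM, 249 to 342 for P-IV.I and 209 to 215 for PcDC2. In PcDC1 it was 612, above both P-IV.II libraries. The ranges of P-IV.II and P-IV.I meet. The summed FPKM of 15 immediate early and stress genes was 1062 to 5309 for SPM, 5595 to 13816 for P-IV.II, 16343 to 17499 for the P-IV.I libraries, 13731 to 18752 for PcDC2 and 8114 for PcDC1. The part of either list in the members' levels was not tested.

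Transcript length moved with the levels and is given beside them. The members are short, with a median of 823.5 nt against 2752.75 nt for the tested genes. Over all 322 tested genes of up to 700 nt, the median deviation from the mean of each gene, on the log2(FPKM + 1) scale, was 0.10 and -0.75 in the SPM libraries and 0.30 and -0.24 in P-IV.II. It was -0.02 and -0.69 for the P-IV.I libraries, -0.27 and 0.03 for PcDC2, and 1.76 for PcDC1. The second SPM and second P-IV.I libraries were thus low for short transcripts in general, and PcDC1 was high. The 33 members of up to 700 nt had medians of 0.23 and -0.82 for SPM, 0.48 and -0.02 for P-IV.II, and -0.30 and -0.88 for the P-IV.I libraries. In PcDC2 these were -0.62 and -0.35, and in PcDC1 2.16. For the 82 members of any length the medians were 0.16 and -0.70 for SPM, 0.41 and 0.11 for P-IV.II, and -0.20 and -0.78 for the P-IV.I libraries. They were -0.48 and -0.32 for PcDC2, and 1.83 for PcDC1. When a trend on length was removed from each library, P-IV.II was the highest group for 57 members (69.5%), against 23.5% of all genes with a length. Without the second SPM library it was the highest for 49 members (59.8%), against 17.9% of all tested genes.

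**Figure D2:**
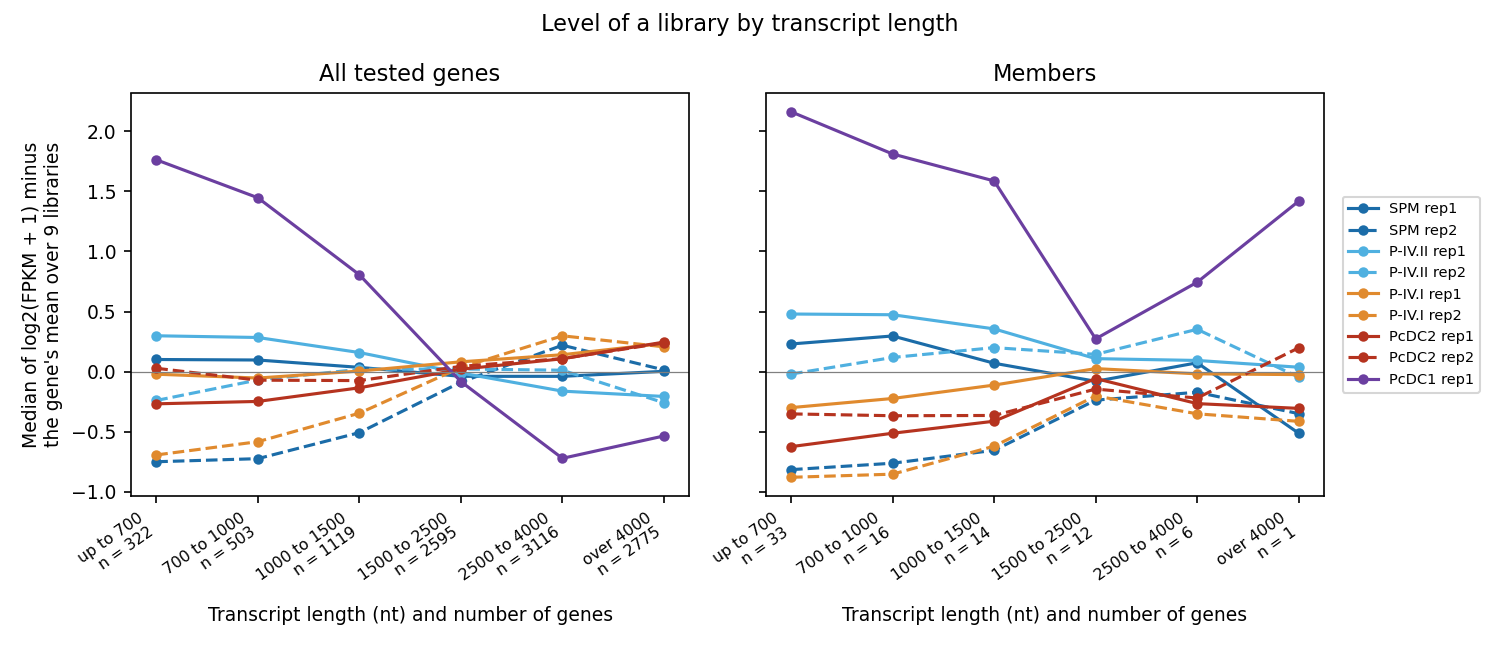
Median of log2(FPKM + 1) minus the mean of each gene over the 9 libraries, by class of transcript length in nt, for all tested genes and for the members, with 1 line per library (dashed for replicate 2). PcDC1 is highest for the shortest genes in both panels, and the members of SPM replicate 2 and P-IV.I replicate 2 lie lowest in the 3 shortest classes.

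Within the CD11c+ CD115+ gate, P-IV.I dendritic cells were compared with P-IV.II macrophages. In P-IV.I, 3 members fell and none rose, against 9.61% of all tested genes called (6.51% higher and 3.11% lower). In the main setting, the share of members that fell is close to that of all genes. The other members did not pass, and 75 of 82 differences were below 0. The median of the members was -0.76 on the log2(FPKM + 1) scale, against 0.19 for all tested genes. That offset of all genes moved to 0.41 with TPM rescaling and to -0.01 with median-ratio rescaling, while the median of the members stayed below it at -0.55 and -0.99. With length correction the members' median was -0.36 against -0.01 for all genes. Leaving out the second P-IV.I library gave -0.45 against 0.20. The members that fell were an accessory subunit of complex I, a membrane anchor of complex II and a small subunit of complex III.

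Ndufa12, an accessory subunit of the matrix arm of complex I (chr10:94199035-94221440), was at 47.5 and 49.5 FPKM in P-IV.II and at 19.7 and 18.0 in P-IV.I. The SPM libraries were at 39.0 and 22.6, PcDC2 at 19.2 and 18.3, and PcDC1 at 149. Both P-IV.II libraries exceeded every other replicated library, and P-IV.I and PcDC2 overlapped. The change from P-IV.II to P-IV.I was -1.32 ± 0.28 (SE, adjusted p = 0.025, limma with Benjamini-Hochberg adjustment, as for all adjusted p-values here).

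Sdhd, which anchors complex II in the membrane and carries part of its ubiquinone site (chr9:50596340-50603849), was at 196 and 219 FPKM in P-IV.II and at 105 and 101 in P-IV.I. SPM stood at 162 and 128, PcDC2 at 79.5 and 90.1 and PcDC1 at 251. The 4 replicated groups did not overlap for this gene, with P-IV.II highest and PcDC2 lowest. The change to P-IV.I was -1.01 ± 0.23 (adjusted p = 0.032).

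Uqcr11, a small accessory subunit of complex III (chr10:80402997-80406821), was at 50.1 and 41.8 FPKM in P-IV.II and at 19.5 and 17.4 in P-IV.I. In SPM it was at 47.2 and 27.5, in PcDC2 at 19.1 and 20.2 and in PcDC1 at 146. P-IV.II overlapped with SPM, and both lay above P-IV.I and PcDC2. The change to P-IV.I was -1.27 ± 0.29 (adjusted p = 0.031). All 3 calls were lost when any 1 of the P-IV.II, P-IV.I or PcDC2 libraries was left out, with adjusted p up to 0.12, 0.17 and 0.13 for Ndufa12, Sdhd and Uqcr11. They were also lost with the length trend removed (changes of -0.81, -0.77 and -0.71), where Ndufa13, Ndufb8 and Sdhc fell and Cox6b2 rose instead. The Sdhd call was lost with TPM rescaling and with only the groups compared as well. Over the 11 other settings with every replicate kept, the adjusted p of Sdhd reached 0.081. Without SPM replicate 1 or 2, 12 members fell in each case (14.6%), against 3.51% of all tested genes.

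Among members that did not pass, Atp5o, the stalk subunit that ties the catalytic head of ATP synthase to its membrane part, differed by -1.12 ± 0.29 (adjusted p = 0.051). Reads of Atp5o and of the antisense genes D430001F17Rik and Gm15976 cannot be told apart without strand. By complex, the medians in this comparison were -0.77, -0.46, -0.80, -0.80 and -0.57 for complexes I to V. The 49 members of up to 1000 nt had a median of -0.83, against -0.39 for all 825 tested genes of that length. The 33 longer members had a median of -0.48, against 0.22 for 9605 longer genes.

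The difference between P-IV.II and PcDC2 sets the same macrophages against CD115- dendritic cells. Of the members, 7 were higher in P-IV.II and 2 were lower, against 20.7% of all tested genes called (7.52% higher and 13.2% lower). In the main setting, the share of members higher is close to that of all genes, and the share lower is below it. The members' median was 0.64, against -0.17 for all tested genes, and 74 of 82 differences were above 0. With length correction it was 0.42. In complex I, Ndufa12 was higher by 1.33 ± 0.28 (adjusted p = 0.014). Ndufb8, an accessory subunit of the membrane arm, was at 144 and 143 FPKM in P-IV.II against 66.1 and 67.1 in PcDC2, a difference of 1.10 ± 0.26 (adjusted p = 0.020). It shares exon bases with Gm20538 on the same strand. Ndufa8, an accessory subunit on the intermembrane side, was at 85.2 and 84.1 against 37.5 and 42.0, a difference of 1.07 ± 0.29 (adjusted p = 0.033).

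In complex II both membrane anchors were higher in P-IV.II than in PcDC2. Sdhd differed by 1.28 ± 0.23 (adjusted p = 0.0065). Sdhc, its partner, was at 87.9 and 97.3 FPKM in P-IV.II against 53.2 and 43.3 in PcDC2, a difference of 0.93 ± 0.24 (adjusted p = 0.029, and 0.055 with TPM rescaling). The iron-sulfur subunit Sdhb was at 152 and 155 against 87.9 and 88.5, which gave 0.79 ± 0.29 and did not pass (adjusted p = 0.087). In complex III, Uqcr11 differed by 1.18 ± 0.29 (adjusted p = 0.023), and in complex V, Atp5o was at 126 and 119 against 58.9 and 53.7, a difference of 1.11 ± 0.29 (adjusted p = 0.032). Each of these 7 genes had both P-IV.II libraries above both PcDC2 libraries. Each call was lost without PcDC2 replicate 1 or P-IV.II replicate 2, with the adjusted p reaching 0.062 for Sdhd, 0.095 for Ndufa12 and 0.20 for Sdhc. The count of 9 called members became 20 and 19 without SPM replicate 1 and 2, 3 and 0 without P-IV.II replicate 1 and 2, and 2 and 1 without PcDC2 replicate 1 and 2. The share of all tested genes called, 20.7% with every library, was 20.9% without SPM replicate 2, 14.8% and 10.1% without the P-IV.II libraries, and 10.9% and 8.78% without those of PcDC2.

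**Figure D3:**
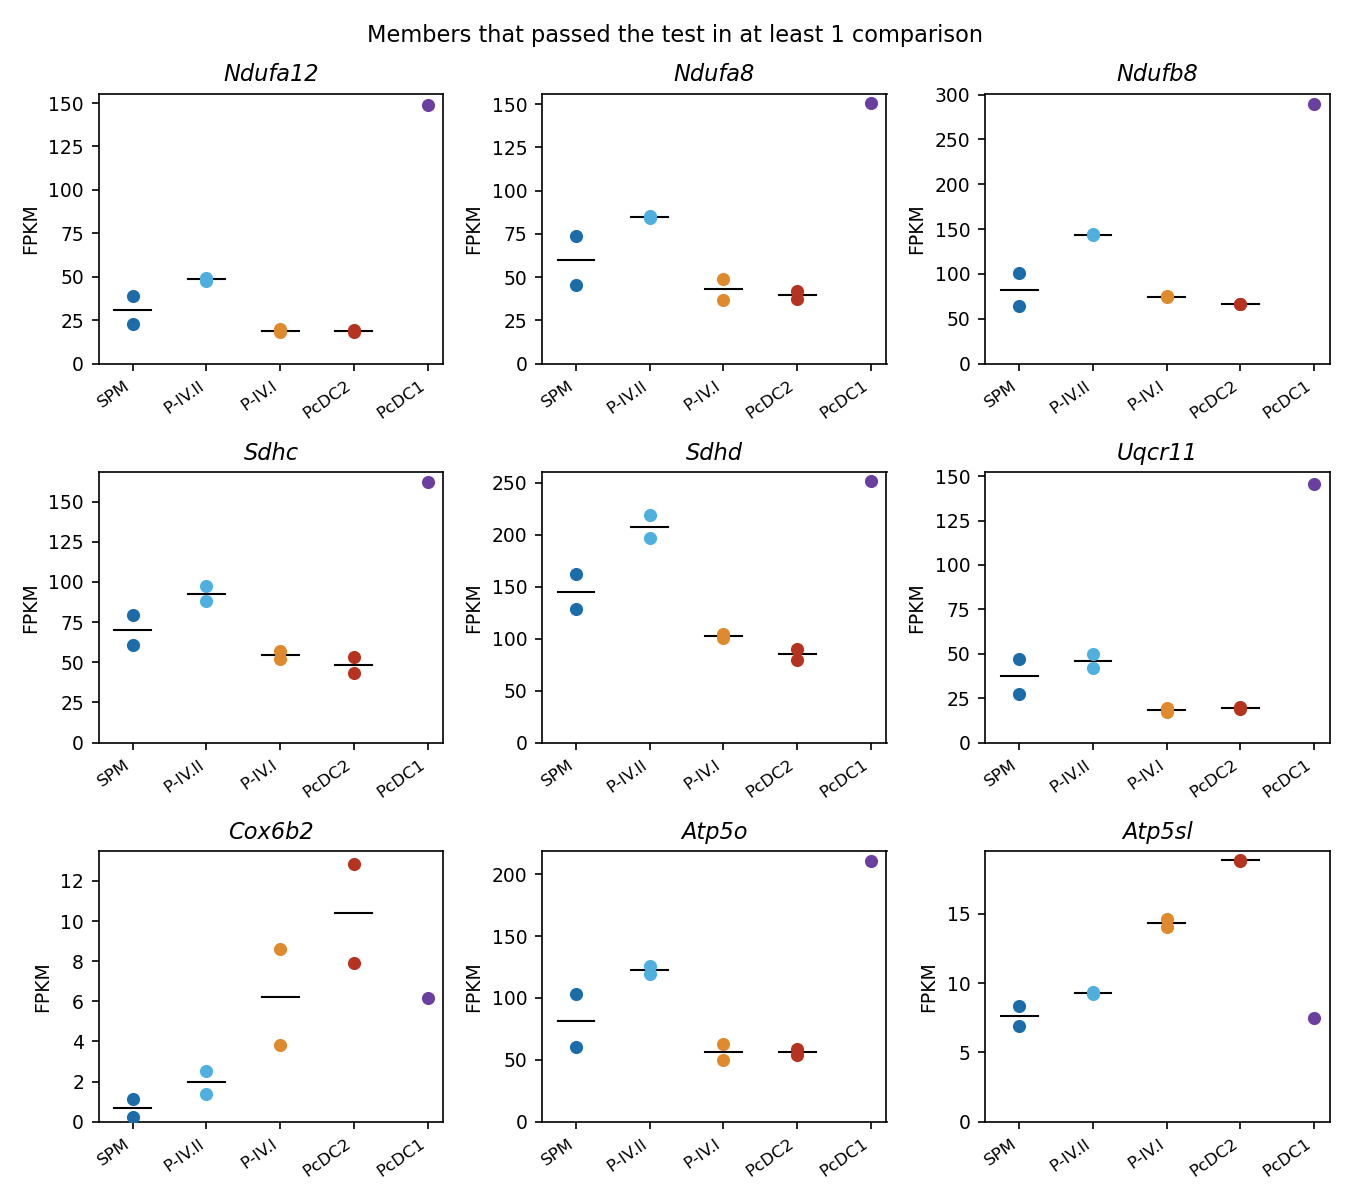
FPKM on a linear axis from 0 for the 9 members that passed the test in at least 1 comparison, with a point per library and a bar at the mean of each replicated group. In 7 of the 9 panels P-IV.II is the highest replicated group, while Cox6b2 and Atp5sl are highest in PcDC2.

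The 2 members lower in P-IV.II than in PcDC2 ran against the rest. Cox6b2, the testis form of a cytochrome c oxidase subunit that faces the intermembrane space (chr7:4751792-4753094), was at 1.11 and 0.232 FPKM in SPM and 2.54 and 1.39 in P-IV.II. It was at 8.59 and 3.83 for the P-IV.I libraries, 7.92 and 12.8 for PcDC2 and 6.17 for PcDC1. All 5 dendritic cell libraries thus exceeded all 4 macrophage libraries. It was higher in PcDC2 than in SPM by 2.78 ± 0.43 (adjusted p = 0.0030), and in P-IV.I than in SPM by 2.08 ± 0.43 (adjusted p = 0.019). Against PcDC2 the P-IV.II level was -1.93 ± 0.43 (adjusted p = 0.017), and P-IV.I minus P-IV.II did not pass (1.23 ± 0.43, adjusted p = 0.12). The common form Cox6b1 remained the more abundant in every library, at 75.2 and 47.7 FPKM in P-IV.I and 63.0 and 69.2 in PcDC2. The call between PcDC2 and SPM held in all 11 other settings and with each of the 8 libraries left out. That between P-IV.I and SPM was lost without SPM replicate 2 or P-IV.I replicate 1 (adjusted p up to 0.12) and with the filter of FPKM above 0 (adjusted p = 0.053). That between P-IV.II and PcDC2 was lost without P-IV.II replicate 2 or PcDC2 replicate 2 (adjusted p up to 0.12).

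Atp5sl, known in human cells as a factor for building the membrane arm of complex I (chr7:25619414-25625550), was at 8.38 and 6.89 FPKM in SPM and at 9.37 and 9.25 in P-IV.II. It was at 14.1 and 14.6 for the P-IV.I libraries, 18.8 and 18.9 for PcDC2 and 7.47 for PcDC1. The macrophage, P-IV.I and PcDC2 libraries did not overlap, and PcDC1 lay within the SPM range. Atp5sl was higher in PcDC2 than in SPM by 1.21 ± 0.22 (adjusted p = 0.0065) and lower in P-IV.II than in PcDC2, at -0.95 ± 0.22 (adjusted p = 0.020). The first call was lost without PcDC2 replicate 2 (adjusted p = 0.056) and the second without any 1 P-IV.II or PcDC2 library (adjusted p up to 0.12). Its difference between P-IV.I and SPM, 0.84 ± 0.22, only just passed (adjusted p = 0.049) and was lost with any 1 library left out. The Sdhaf genes, Atp5s and Cox7a2l did not pass in any comparison.

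PcDC2 and SPM, which lie outside the shared gate, differed in few members. Only Cox6b2 and Atp5sl passed, both higher in PcDC2, against 19.7% of all tested genes called (11.2% higher and 8.46% lower). The members' median was -0.16, against 0.13 for all genes, and it became 0.21 and -0.60 when SPM replicate 1 and 2 were left out, and -0.08 and -0.28 when the same was done for PcDC2. It was -0.34 with median-ratio rescaling, -0.25 with quantile normalization and -0.29 with length correction. Without SPM replicate 2, 4 members passed (12.9% of all genes), and without PcDC2 replicate 2, 1 did (10.3% of all genes). By complex the medians were -0.23, -0.15, -0.22 and -0.15 for complexes I to IV and 0.10 for complex V, where it turned to -0.06 with median-ratio rescaling and -0.03 with length correction. Uqcr11 differed by -0.85 ± 0.29 and did not pass (adjusted p = 0.077). With the length trend removed, 12 members passed, of which 9 were lower in PcDC2, Sdhd and Uqcr11 among them. That share of 11.0% is close to the 12.5% of all genes called lower in that setting.

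Between P-IV.I and SPM the same 2 genes passed, against 11.0% of all tested genes called (6.41% higher and 4.58% lower). The members' median was -0.19, against 0.12 for all genes, and became 0.15 and -0.66 without SPM replicate 1 and 2, and -0.52 and 0.02 without P-IV.I replicate 1 and 2. It was -0.38 with median-ratio rescaling, -0.30 with quantile normalization and -0.10 with TPM rescaling. Uqcr11 differed by -0.93 ± 0.29 (adjusted p = 0.082). As given above, each call was lost with some libraries left out. Over the settings run, the difference ran from 0.95 to 3.20 for Cox6b2 and from 0.62 to 0.97 for Atp5sl.

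No member passed between the 2 macrophage groups, P-IV.II and SPM, where 1.14% of all tested genes were called (0.238% higher and 0.903% lower). An unadjusted p under 0.05 was reached by 6 members. All but 2 of the 82 differences were above 0, with a median of 0.51 against -0.06 for all tested genes. The largest by complex were Ndufa6 at 1.04 ± 0.41 (adjusted p = 0.40), Sdhb at 0.57 ± 0.29 (adjusted p = 0.53), Uqcr10 at 0.72 ± 0.34 (adjusted p = 0.51), Cox6b2 at 0.85 ± 0.43 (adjusted p = 0.53) and Atp5f1 at 1.08 ± 0.30 (adjusted p = 0.21). Atp5f1, a subunit of the peripheral stalk, was at 131 and 129 FPKM in P-IV.II and 74.5 and 50.1 in SPM, without overlap. Its exons overlap those of Wdr77 on the opposite strand, and their reads cannot be told apart. With the length trend removed the members' median was 0.15. It was 0.94 without SPM replicate 1 and 0.10 without SPM replicate 2, where 56 differences were above 0, and 0.31 without P-IV.II replicate 1.

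None passed either between the 2 dendritic cell groups P-IV.I and PcDC2, where 0.732% of all genes were called (0.599% higher and 0.133% lower) and no member had an unadjusted p under 0.05. The members' median was -0.08, against -0.01 for all genes, and it was 0.08 with length correction, -0.35 and 0.16 without P-IV.I replicate 1 and 2, and -0.18 and 0.03 without PcDC2 replicate 1 and 2. Ndufs5, an accessory subunit of complex I, had the largest difference, 1.29 ± 0.80 (adjusted p = 0.98). Its 2 PcDC2 libraries were at 1.12 and 16.0 FPKM, further apart than those of any other group for this gene. In P-IV.I it was at 15.9 and 11.7, against 2.08 and 1.81 for SPM, 4.22 and 2.84 for P-IV.II and 5.68 for PcDC1.

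Whether the step from macrophage to dendritic cell differed inside and outside the CD11c+ CD115+ gate was tested as an interaction. No member passed, against 1.11% of all tested genes (1.01% higher and 0.105% lower), and 3 had an unadjusted p under 0.05. The members' median was -0.60, against 0.05 for all genes. For the 49 members of up to 1000 nt it was -0.64, against -0.59 for the 825 genes of that length. For the 33 longer members it was -0.47, against 0.096 for 9605 longer genes. The median of all 82 members was -0.04 with length correction, -1.01 without SPM replicate 1 and -0.11 without SPM replicate 2. It ranged from -0.30 to -0.85 with 1 library of another group left out. The member with the lowest adjusted p was Atp5f1, at -1.30 ± 0.43 (adjusted p = 0.31).

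**Figure D4:**
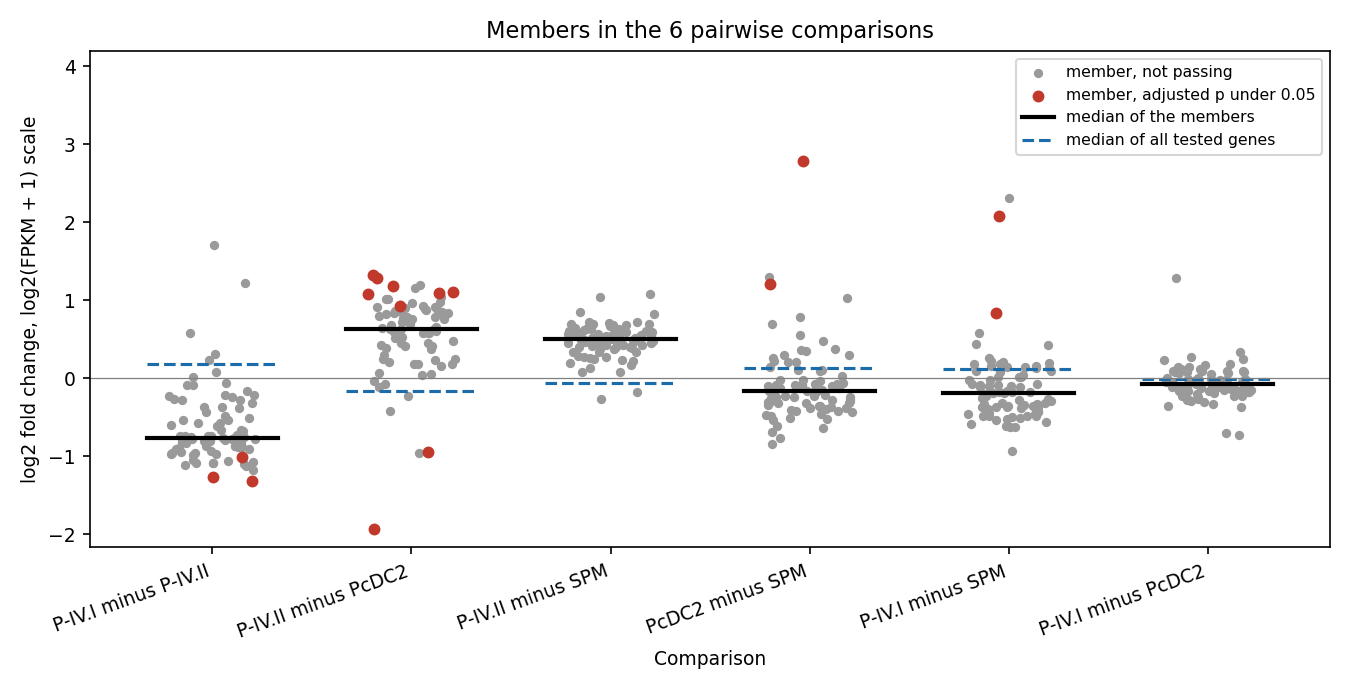
Fitted log2 fold change of every member in the 6 pairwise comparisons, on the log2(FPKM + 1) scale, with members at adjusted p under 0.05 in red, the median of the members as a bar and that of all tested genes as a dashed line. The members' median lies farthest from that of all genes in the 2 comparisons of P-IV.II with dendritic cells, at -0.76 and 0.64, and in P-IV.II against SPM, at 0.51.

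Core subunits differed among themselves in which libraries were high. Ndufv1, the flavin-binding core subunit of the NADH end, ranged from 46.7 FPKM in PcDC1 to 68.0 in P-IV.II. By contrast Ndufs3, Ndufs7, Ndufs8 and Ndufv2, which have shorter transcripts, were highest in PcDC1, at 103, 146, 201 and 142 FPKM.

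Sdha, the flavoprotein that oxidises succinate, differed from its iron-sulfur partner Sdhb in which libraries were high. Sdha was at 130.4 and 227 FPKM for SPM, 111 and 183 for P-IV.II, 147 and 214 for the P-IV.I libraries, 168 and 168 for PcDC2 and 59.6 for PcDC1. Sdhb was at 132 and 80.0 for SPM, 152 and 155 for P-IV.II, 109 and 85.0 for the P-IV.I libraries, 87.9 and 88.5 for PcDC2 and 252 for PcDC1. Replicate 2 was the higher for Sdha and the lower for Sdhb in SPM and P-IV.I, and PcDC1 was lowest for Sdha and highest for Sdhb. The transcript of Sdha measures 2900 nt and that of Sdhb 1142 nt. Ndufs1, the largest core subunit of complex I, followed Sdha, at 25.1 and 37.5 for SPM, 24.3 and 34.1 for P-IV.I and 12.3 for PcDC1, with a transcript of 2661 nt.

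In complex III, Uqcrc1 lay at 237 and 289 FPKM for SPM, 290.1 and 395 for P-IV.II, 250.2 and 310.4 for the P-IV.I libraries, 248 and 226 for PcDC2 and 236 for PcDC1. Uqcrfs1, the Rieske iron-sulfur protein, lay at 74.5 and 53.9 for SPM, 106 and 99.1 for P-IV.II, 86.1 and 57.0 for the P-IV.I libraries, 66.2 and 80.9 for PcDC2 and 276 for PcDC1. Thus PcDC1 was highest for the second and within the range of the others for the first. In complex IV, Cox5a and Cox5b, which surround the mitochondrially encoded core, were highest in PcDC1, at 283 and 169 FPKM. In complex V, Atp5c1, the rotor shaft, was at 448 FPKM in PcDC1 and at 73.6 to 157 elsewhere, whereas Atp5b was lowest in PcDC1, at 410.4 against 440.5 to 560.2.

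PcDC1 stood apart from the other groups, without a replicate and so without a test. Members made up 2.24% of its FPKM total, and the median member was at 157 FPKM. For 71 of 82 members PcDC1 lay above all 8 other libraries, against 26.9% of all tested genes. For 5 it lay below all 8, against 39.2%, and these were Sdha, Ndufs1, Ndufv1, Atp5a1 and Atp5b. All 5 have transcripts over 1000 nt. Of the 49 members of up to 1000 nt, 47 were above all other libraries, against 75.8% of all genes of that length. Of the 33 longer members, 24 were above, against 22.6% of longer genes.

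Against the PcDC2 mean, PcDC1 was higher by over 1 on the log2(FPKM + 1) scale for 67 members, against 18.1% of all tested genes. The median difference was 2.13 for the members and -0.36 for all tested genes. The 3 highest were Cox7c, a small complex IV subunit, at 310.0 against 23.2 FPKM (3.74), Uqcrb, which lies near the ubiquinone site of complex III, at 467 against 44.4 (3.38), and Uqcrq at 64.7 against 5.97 (3.24). The 3 lowest were Sdha at 59.6 against 168 (-1.48), Atp5sl at 7.47 against 18.9 (-1.23) and Ndufs1 at 12.3 against 22.7 (-0.83). Cytosolic ribosomal protein genes, also short, had a median deviation of 2.23 in PcDC1, and mitochondrial ribosomal protein genes one of 1.43. The part of transcript length in the PcDC1 levels was not tested.

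A gene that feeds the chain showed a larger tested difference than any member. Sulfide quinone oxidoreductase, Sqrdl, feeds electrons from hydrogen sulfide into ubiquinone. It was at 90.9 and 74.3 FPKM for SPM, 79.3 and 72.8 for P-IV.II, 14.6 and 15.6 for the P-IV.I libraries, 0.995 and 0.563 for PcDC2 and 1.99 for PcDC1. The macrophage libraries thus lay above P-IV.I, and P-IV.I above PcDC2, without overlap. The log2 difference was -2.26 ± 0.24 from P-IV.II to P-IV.I (adjusted p = 0.0019), -5.56 ± 0.24 from SPM to PcDC2 (adjusted p = 1.3e-05) and 3.19 ± 0.24 from PcDC2 to P-IV.I (adjusted p = 0.0011). In the same list of 15 electron carriers and exchangers, the ADP/ATP carriers passed in different comparisons. Slc25a4 was higher in PcDC2 than in SPM (1.20 ± 0.27, adjusted p = 0.017), and Slc25a5 was higher in P-IV.II than in PcDC2 (1.11 ± 0.25, adjusted p = 0.019). Gpd2, the glycerol phosphate dehydrogenase of the inner membrane, was higher in PcDC2 than in SPM (0.86 ± 0.25, adjusted p = 0.046), a call lost with TPM, median-ratio and quantile rescaling and with length correction (adjusted p up to 0.11). Vdac3, a channel of the outer membrane, was higher in P-IV.II than in PcDC2 (0.93 ± 0.24, adjusted p = 0.030, and 0.064 with TPM rescaling).

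Of 22 tested genes of the TCA cycle and pyruvate dehydrogenase, only fumarase, Fh1, passed in any comparison. It was at 50.7 and 33.4 FPKM for SPM, 66.9 and 43.2 for P-IV.II, 145 and 94.4 for the P-IV.I libraries, 163 and 151 for PcDC2 and 55.6 for PcDC1. It was higher in PcDC2 than in SPM by 1.90 ± 0.33 (adjusted p = 0.0052), a comparison in which 19.7% of all tested genes were called. Among 15 genes of mitochondrial transcription and biogenesis, Ppargc1b, a coactivator of respiratory genes, was at 3.68 and 3.55 FPKM for SPM, 5.08 and 4.77 for P-IV.II, 1.18 and 3.81 for the P-IV.I libraries, 0.536 and 0.408 for PcDC2 and 0.0748 for PcDC1. Its level in PcDC2 was lower than in SPM (-1.65 ± 0.35, adjusted p = 0.013) and lower than in P-IV.II (adjusted p = 0.0058 for the difference of 2.01 ± 0.35). PcDC1, which has 1 library, had the lowest Ppargc1b. PcDC1 lay below all 8 other libraries for 39.2% of all tested genes. The part of Ppargc1b in the members' levels was not tested. Polg2, a subunit of the mitochondrial DNA polymerase, was lower in P-IV.II than in P-IV.I and PcDC2 (adjusted p = 0.040 and 0.039). Both Polg2 calls were lost with median-ratio rescaling, with quantile normalization and with only the groups compared. The call against P-IV.I was also lost with pseudocount 0.1 and with any 1 library of the replicated groups left out. The call against PcDC2 was lost without any 1 SPM, P-IV.II or PcDC2 library. The lower Ppargc1b in PcDC2 than in SPM was lost without any 1 library of those groups (adjusted p up to 0.084).

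**Figure D5:**
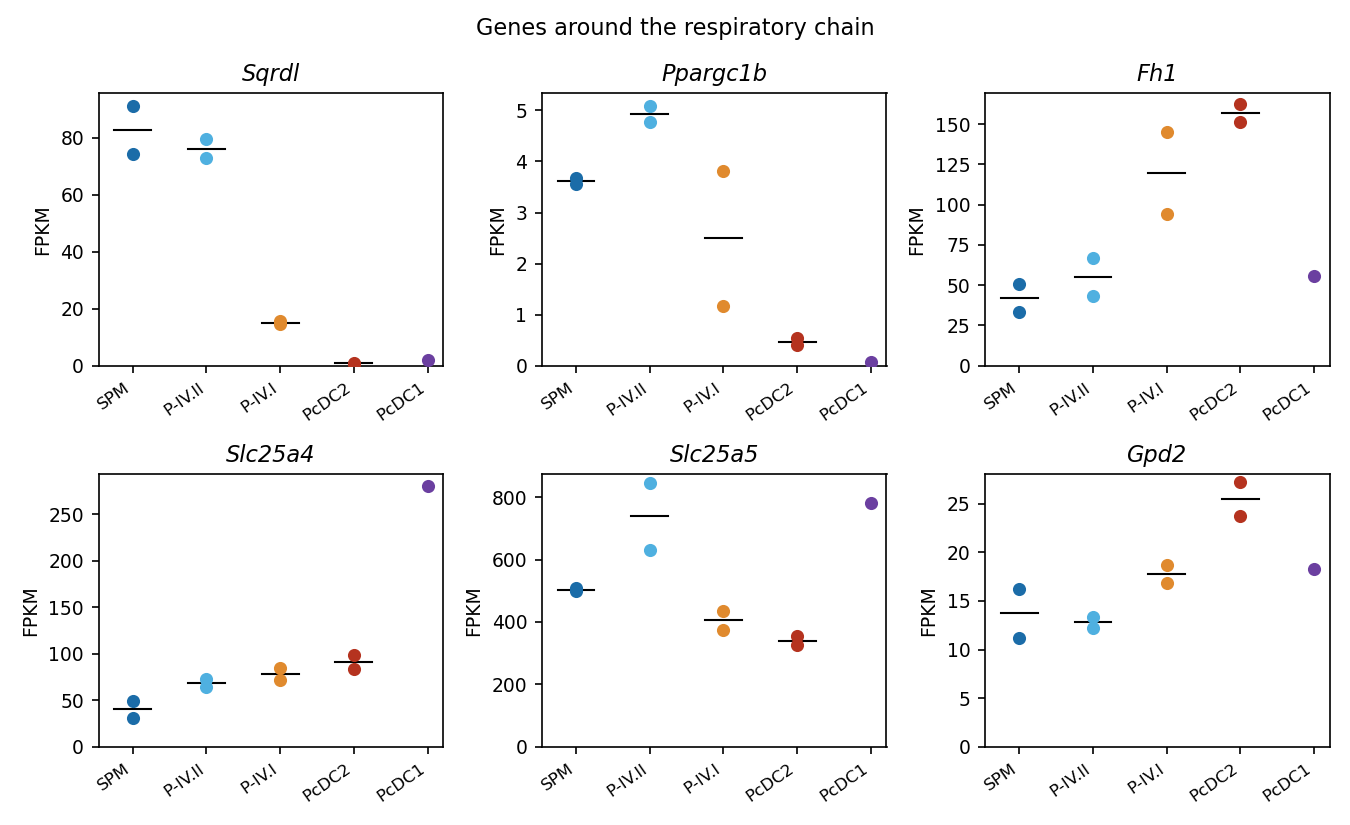
FPKM on a linear axis from 0 for 6 genes that feed, exchange with or regulate the respiratory chain, with a point per library and a bar at the mean of each replicated group. Sqrdl falls from macrophages through P-IV.I to PcDC2, Fh1 and Gpd2 run the other way, and Slc25a4 and Slc25a5 differ in their highest replicated group.

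Of 50 tested assembly factors, which include the Sdhaf members, Coa4 and Ndufaf2 fell from P-IV.II to P-IV.I and none rose. The list median was -0.12 and turned to 0.09 with TPM rescaling. Of all tested genes, 3.11% were lower and 6.51% were higher in that comparison. Against PcDC2, Coa3, Coa4 and Uqcc2 were higher in P-IV.II, Coa3 not with TPM rescaling. There 7.52% of all tested genes were higher in P-IV.II and 13.2% were lower. Ndufaf2 was lost with length correction, as was the mitochondrial ribosomal gene Mrpl42 in the same comparison. Of 78 mitochondrial ribosomal protein genes, Mrpl33, Mrpl42 and Mrps6 fell from P-IV.II to P-IV.I, with a list median of -0.46. For these genes and the assembly factors, the share that fell is close to the 3.11% of all tested genes. None of 79 cytosolic ribosomal protein genes passed in either comparison of P-IV.II with dendritic cells, and their median in P-IV.I against P-IV.II was -0.09, which turned to 0.13 with TPM rescaling and 0.29 with length correction. Of 17 glycolytic genes, Aldoa, Pgk1 and Tpi1 fell from P-IV.II to P-IV.I and Aldoc rose, with a list median of -0.64. The call of Aldoc was lost with median-ratio rescaling and quantile normalization, that of Pgk1 with TPM rescaling and that of Tpi1 with quantile normalization. In P-IV.II against PcDC2, 6 glycolytic genes were higher (Aldoa, Hk3, Pgam1, Pgk1, Pkm and Tpi1) and Aldoc was lower, with a list median of 0.79. Here Aldoc was lost with median-ratio rescaling and quantile normalization, and Pkm with TPM rescaling and quantile normalization. The glycolytic median thus lay on the same side of the median of all tested genes as that of the respiratory chain in both comparisons. Of 50 calls of genes in these lists over the 6 pairwise comparisons, 36 were lost without at least 1 library and 23 in at least 1 other setting.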

How the data were processed

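RNA was measured in 9 libraries of sorted peritoneal cells, made with a SMARTer Ultra Low kit, which does not mark strand, and sequenced on a NovaSeq, per the labels. Tools named in the submitters' processing notes are HISAT2 2.1.0, StringTie 1.3.4d, Cufflinks and bcl2fastq 1.8.4, and the build is mm10. The deposited table holds FPKM values that the authors call normalized, a step not given in the sources used here. Of its 24532 genes, 8597 are at 0 in every library. Counts were not recovered (2.94% of 1189 low genes shared the commonest ratio between libraries within 1%), so depth is unknown and no count model or counting interval was used.

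Genes at 1 FPKM or more in 2 or more libraries (10526) were fitted on log2(FPKM + 1), which understates changes of low genes, with limma 3.58.1 in R 4.3.3 (lmFit, contrasts.fit, eBayes with a variance trend) on the 9 libraries together. Residual degrees of freedom were 4 and the prior added 4.02. P-values are two-sided and were adjusted by Benjamini-Hochberg over all tested genes in each comparison, with a threshold of 0.05. The fit was tested on simulated data. Changes are log2 fold changes ± SE with 2 libraries per group, and SDs over groups or libraries are of FPKM.

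Members named are up to 3 called per complex and comparison (otherwise the largest difference), the extremes of mean FPKM, core subunits, isoform sets, prefix matches that are not subunits, and for PcDC1 the 3 highest and 3 lowest. The values of 1 member are not reported here, and it stays in the counts and medians. Members and lists were chosen with earlier results of these data known. Lists are described by counts and medians, with no list test. Transcript lengths and exon overlaps are from GENCODE M21, coordinates and promoters from RefSeq GRCm38.p6. Alternatives were pseudocounts, filters, TPM, median-ratio and quantile rescaling, no trend, only the groups compared, a replicate block, each library left out and, added after seeing the data, removal of a lowess trend (span 0.3) on transcript length.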

Additional observations from a re-analysis of the deposited data

How the results depend on the processing

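The number of members called depended on the settings. In P-IV.I against P-IV.II the count of 3 became 14 with median-ratio rescaling and 12 with the replicate block. It also changed with 1 library left out, where the members' median ranged from -1.04 to -0.45. Between PcDC2 and SPM the count of 2 became 4 with median-ratio rescaling, 4 with the block and 12 with length correction, and changed with 1 library left out. Between P-IV.I and SPM the count of 2, both higher, became 1 with pseudocount 5, 1 with the filter above 0 and 1 with quantile normalization. With the replicate block 2 members were higher and 1 was lower, and with median-ratio rescaling 1 was higher and 1 was lower. The count also changed with 1 library left out. Between P-IV.II and PcDC2 the count of 9 became 23 with median-ratio rescaling, 21 with only the groups compared, 23 with the block and 23 with length correction, and ranged from 0 to 20. In the other 2 comparisons and the interaction it stayed at 0 in every setting run. The share of all genes called also moved. For P-IV.I against P-IV.II it was 9.61% in the main setting, 9.38% with median-ratio rescaling and 15.3% with the block. For PcDC2 against SPM it was 19.7%, 19.5% and 26.5%, and 23.9% with length correction. For P-IV.I against SPM it was 11.0%, and 10.1%, 7.44% and 10.7% with pseudocount 5, the filter above 0 and quantile normalization. With the block it was 15.7% and with median-ratio rescaling 10.9%. For P-IV.II against PcDC2 it was 20.7%, and 19.8%, 19.4%, 29.0% and 21.2% in the 4 settings named. The cause was not tested. Of the named differences under the alternatives, 764 stayed on the same side of the threshold, 71 no longer passed and 17 newly passed. The 3 that changed sign were Ndufs5 between PcDC2 and SPM (-0.47 without PcDC2 replicate 2, up to 2.53 without replicate 1), Ndufs5 between P-IV.I and PcDC2 (-0.22 without PcDC2 replicate 1, up to 2.79 without replicate 2) and Uqcrh between P-IV.I and PcDC2 (0.13 without P-IV.I replicate 2, down to -0.67 without replicate 1). A library left alone in its group was assumed to vary like the others. Nothing states that replicate numbers pair the samples. The correlation of replicate 1 minus replicate 2 between groups ran from -0.28 (P-IV.I and PcDC2) to 0.71 (SPM and P-IV.II) over 10526 genes, so pairing was not assumed.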
